A study of Mus musculus with 6 samples.

Results

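Myeloid lectins, Fc receptors, scavenger receptors and the adaptors they signal through were followed in mouse salivary gland with and without transgenic RANKL. The members were chosen by gene symbol, with earlier results of these data known. They were C-type lectin genes numbered Clec, the Fcgr, Siglec, Pilra and Pilrb, Trem and Cd300 families, and 14 named genes from Axl to Tyrobp. The rule found 72 of the 24054 genes in the count table. All of the 72 had at least 1 read, and 54 passed the filter on low counts.

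The K5-RANKL group carried 2 transgenes, K5-rtTA and TetO-RANKL, in which a keratin 5 promoter makes the doxycycline-dependent activator that switches on RANKL. RANKL is a TNF family cytokine best known for driving the formation of osteoclasts. The controls were monogenic. The sources used here do not say which transgene they carried, nor the strain, sex or gland. Both groups were given doxycycline, in food and water, beginning at 9 weeks of age and lasting 2 weeks. Each group had 3 libraries, each from glands pooled over 5 mice, so p-values measure the spread between pools.

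These receptors read the surroundings of macrophages, dendritic cells and neutrophils. Many have no signalling tail of their own and pair with Tyrobp (DAP12) or Fcer1g (the Fc receptor gamma chain), small adaptors whose ITAM motifs recruit the kinase Syk. Others carry an ITIM, which recruits phosphatases and restrains the cell. In osteoclast precursors, Tyrobp and Fcer1g give a costimulatory signal that acts together with RANK, the receptor of RANKL. Scavenger and uptake receptors take up modified lipoproteins, sugars and dying cells.

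Total counts lay between 13875951 and 17921815 per library. Levels are CPM, read counts scaled to the size of the library, with library sizes adjusted by TMM (trimmed mean of M values). Log2 fold changes are K5-RANKL over control from edgeR's quasi-likelihood test with Benjamini-Hochberg adjustment over 14044 genes. On this scale the median of all genes tested was 0.01, and by library totals alone it was 1.01. Markers of acinar cells, which secrete saliva, were present in every library, and all 5 fell, from a summed level of 32618 to 55556 CPM in controls to 463 to 1649 CPM in K5-RANKL glands. Over the 50 tested members with a count in every library, control 1 deviated from the mean of the other controls by a median log2 value of −0.21. It was below that mean for 40 of them. Each K5-RANKL library deviated from the mean of the others in its group by a median of 0.01 to 0.02.

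Most tested members were higher in K5-RANKL glands. Of the 54, 48 rose, 2 fell (Clec2d and Clec14a) and 4 did not pass (Cd36, Cd300lg, Clec1a and Clec4b1), at an adjusted p under 0.05. Over all genes tested, 34.2% rose, 32.1% fell and 66.2% passed in either direction, against 50 members. The median log2 fold change of the tested members was 1.85, beside 0.01 for all genes. At least 4-fold higher were 24 members, against 6.65% of all genes, and 11 of the 24 missed the level the filter asks for in at least 1 control. The groups did not overlap for 49 members, against 70.4% of all genes, and every K5-RANKL library lay above every control for 47 of them, against 36.3% of all genes. By library totals alone all 54 rose, Clec2d and Clec14a included, while 83.5% of all genes rose and 4.97% fell.

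The filter bears on these counts. It asked for 0.648 CPM by library totals in at least 3 libraries of either group. Cd300lb, Cd300lf, Clec12b, Clec2g, Clec4d, Clec4e, Pilrb2, Siglec15, Trem1 and Treml4 reached that level in no control and were tested through K5-RANKL libraries alone, so their calls and the family counts that hold them rest on that choice. Another 6 members (Cd300ld, Clec4b1, Clec5a, Clec9a, Fcgr4 and Pilra) reached it in only 1 or 2 controls. Of the 38 that reached it in all 3 controls, 33 rose, 13 of them at least 4-fold, and 2 fell. Among all 12603 genes that did so, 30.8% rose and 3.21% rose at least 4-fold. The 18 untested members had between 0 and 13 counts over the control group and between 0 and 49 over the K5-RANKL group. When the filter was dropped, 4 of them passed as higher with edgeR: Siglec5 (log2 fold change 3.69), Clec4a4 (3.06), Cd300c (2.64) and Cd300e (2.47), on 1 or 2 control counts each. The others included Pilrb1, at 0.393 ± 0.171 and 0.741 ± 0.257 CPM (SD, n = 3 each), and Clec4g, Clec4f, Clec18a, Clec3a, Clec2e, Clec2f, Clec2h, Clec2l and Cd300lh.

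The summed level of all 72 genes was 559, 602 and 594 CPM in controls and 1380, 1423 and 1439 CPM in K5-RANKL glands. Most markers of myeloid cells and T cells moved with them. All 9 macrophage markers rose (median 2.21), and their summed level went from between 385 and 455 CPM to between 2456 and 2594 CPM. All 7 dendritic cell markers (median 2.17) and all 5 monocyte markers (median 1.81) rose too. Of these, the monocyte marker Chil3 was under the filter's level in every control, on 5 control counts. The dendritic cell marker Batf3 was under it in control 1 and control 3. Of 8 neutrophil markers, 4 could be tested and rose, of which S100a8 and S100a9 were under the filter's level in every control. Among the untested, Retnlg and Mmp8 each went from 2 counts to 21, and Camp from 4 to 8 (0.118 and 0.130 CPM). The summed level of the list was 2.40 to 4.69 CPM in controls and 12.3 to 14.6 CPM in K5-RANKL glands. Of 5 mast cell markers, 4 could be tested and rose (median 1.26), at a summed level of 7.19 to 12.3 CPM in controls and 21.7 to 26.4 CPM in K5-RANKL glands. The mast cell marker Cpa3 and the neutrophil marker Cxcr2 were under the filter's level in control 1. Of 4 eosinophil markers, 2 (Ccr3 and Il5ra) could be tested and rose, both under the filter's level in every control. Prg2 was not tested and went the other way without overlap, from 1.12 ± 0.401 to 0.255 ± 0.193 CPM (SD, n = 3 each). Epx and Ccr3 were at 0 in controls. The summed level of the 4 was 0.982 to 1.80 CPM in controls and 1.96 to 2.41 CPM in K5-RANKL glands. Of 6 T cell markers 5 rose (median 1.03), at a summed level of 67.9 to 73.2 CPM in controls and 138 to 152 CPM in K5-RANKL glands. Markers of B cells and NK cells moved less. Of 5 B cell markers 1 rose (median 0.16), and of 5 NK cell markers 2 rose and 1 fell (median 0.42). The 5 pan-leukocyte genes rose by a median of 1.05. The part of cell numbers in the changes below was not tested. In these bulk samples more cells of a type and more RNA per cell cannot be told apart.

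**Figure D1:**
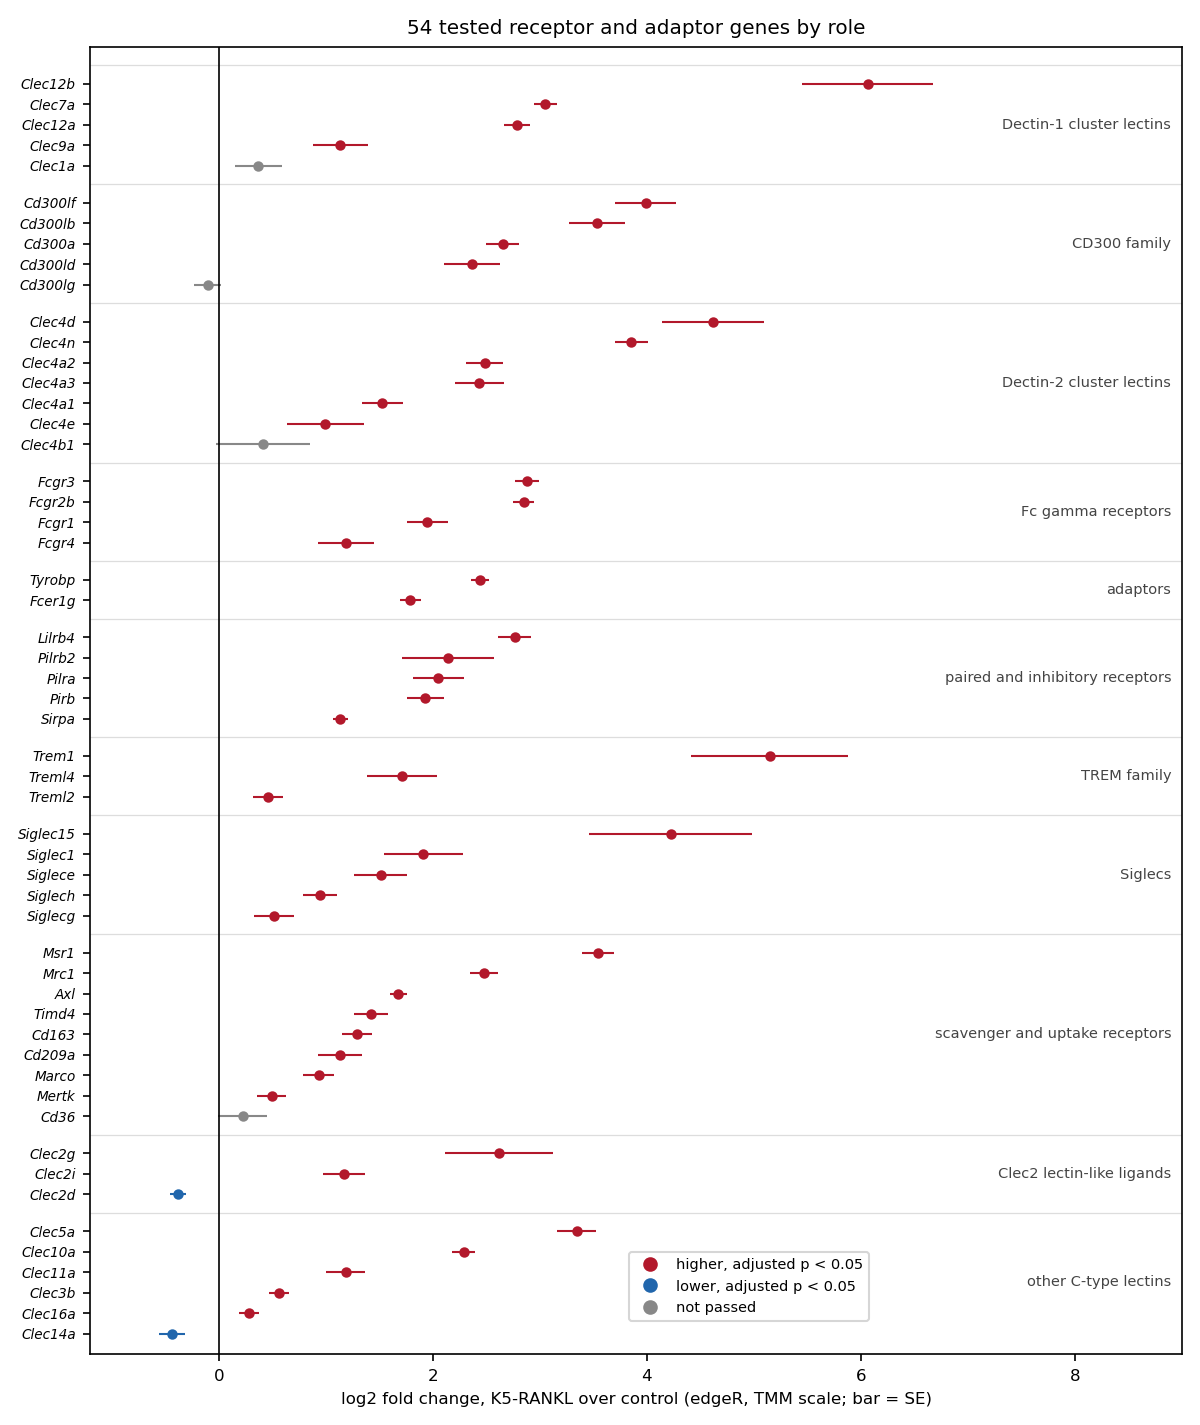
Log2 fold change, K5-RANKL over control (x axis), of the 54 tested members (y axis, grouped by role); points are edgeR estimates and bars are standard errors. Red points passed as higher (48), blue as lower (2) and grey did not pass (4); Clec12b, Trem1 and Siglec15 rest on 1 count in controls, and by library totals alone every point lies to the right of 0.

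PU.1 binds purine-rich sites with the core GAGGAA, and the promoters of the members were searched for these letters. RefSeq windows of GRCm38.p6, from 250 bases before to 50 bases after the annotated start, were found for 55 of the 72 members. GAGGAA, read on either strand, was present in a window of 32 of these 55 genes (58.2%), and of 8446 of all 27025 genes with a window (31.3%). Of the 38 matched members that rose, 25 held it. Of those that fell, Clec14a held 1 match and Clec2d none, and of those that did not pass, Clec4b1 held 2 and Cd36 none. A match is a run of letters and not a site shown to be bound. The sequences below show members that rose with several matches (Clec12a, Clec5a and Mrc1), an adaptor that rose with none (Fcer1g) and a member that fell on the TMM scale with none (Clec2d). Each is written 5′ to 3′ on the strand of its gene, with matches in capitals, as GAGGAA or as its reverse complement TTCCTC.
Clec12a, chr6:129349994-129350293, plus strand: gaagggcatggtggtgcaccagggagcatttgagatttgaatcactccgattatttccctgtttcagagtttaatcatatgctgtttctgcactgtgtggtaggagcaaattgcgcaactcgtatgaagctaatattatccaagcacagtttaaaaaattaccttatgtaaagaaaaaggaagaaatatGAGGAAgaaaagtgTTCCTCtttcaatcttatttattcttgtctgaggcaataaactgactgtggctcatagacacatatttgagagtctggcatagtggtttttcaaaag
Clec5a, chr6:40585756-40586055, minus strand: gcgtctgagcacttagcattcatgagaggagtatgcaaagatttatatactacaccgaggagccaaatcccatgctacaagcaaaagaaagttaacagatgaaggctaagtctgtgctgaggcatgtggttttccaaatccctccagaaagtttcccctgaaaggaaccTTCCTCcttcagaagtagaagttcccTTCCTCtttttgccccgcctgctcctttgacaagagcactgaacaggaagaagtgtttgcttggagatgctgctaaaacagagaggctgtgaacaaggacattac
Mrc1, chr2:14229164-14229463, plus strand: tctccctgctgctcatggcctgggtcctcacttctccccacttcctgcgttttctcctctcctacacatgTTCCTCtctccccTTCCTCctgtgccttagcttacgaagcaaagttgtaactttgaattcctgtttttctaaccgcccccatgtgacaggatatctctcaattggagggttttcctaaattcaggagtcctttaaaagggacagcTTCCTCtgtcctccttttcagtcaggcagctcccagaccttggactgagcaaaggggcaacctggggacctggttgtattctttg
Fcer1g, chr1:171234300-171234599, minus strand: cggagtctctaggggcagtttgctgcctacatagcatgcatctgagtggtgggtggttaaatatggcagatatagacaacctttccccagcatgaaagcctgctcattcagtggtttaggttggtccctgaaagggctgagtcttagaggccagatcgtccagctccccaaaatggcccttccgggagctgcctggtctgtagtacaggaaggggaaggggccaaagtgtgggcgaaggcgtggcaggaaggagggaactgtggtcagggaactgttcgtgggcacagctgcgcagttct
Clec2d, chr6:129180365-129180664, plus strand: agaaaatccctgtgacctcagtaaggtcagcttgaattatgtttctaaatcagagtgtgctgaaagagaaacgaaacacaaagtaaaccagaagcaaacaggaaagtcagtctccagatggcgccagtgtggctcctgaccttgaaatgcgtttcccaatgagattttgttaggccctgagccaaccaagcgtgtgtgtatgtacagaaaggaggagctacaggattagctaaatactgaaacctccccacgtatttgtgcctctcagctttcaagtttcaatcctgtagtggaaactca
The matches of Clec12a begin 61 and 47 bases before the start, those of Clec5a 81 and 55, and those of Mrc1 180, 167 and 35.

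Both adaptors rose. Tyrobp (chromosome 7 from 30413782 to 30417582, GRCm38) stood at 17.9, 15.3 and 16.0 CPM in controls and 90.0, 90.6 and 86.3 CPM in K5-RANKL glands. That is a log2 fold change of 2.44 (SE 0.08, 5.42-fold, edgeR adjusted p = 1.90e-13). Fcer1g (chromosome 1 from 171229572 to 171234349) stood at 9.12, 10.1 and 10.6 CPM in controls and 33.2, 37.0 and 33.1 CPM in K5-RANKL glands, and rose by 1.79 (SE 0.10, edgeR adjusted p = 5.64e-11). The groups were far apart for both genes. The ratio of Tyrobp to Fcer1g within a library was 1.96, 1.51 and 1.52 in controls and 2.71, 2.45 and 2.61 in K5-RANKL glands, without overlap. Scaled to exon length, Tyrobp was the most abundant member in K5-RANKL glands at 158 CPM per kilobase. In controls it was second, at 29.1, after Clec2d at 90.8. Fcer1g went from 13.3 to 46.1 CPM per kilobase.

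Of the 6 genes of the Dectin-1 cluster on chromosome 6, 4 of the 5 tested rose and Clec1a did not pass. Clec7a, encoding Dectin-1, the receptor of fungal beta-glucan, had 4.79, 5.11 and 4.62 CPM in controls and 41.5, 40.9 and 37.7 CPM in K5-RANKL glands. It rose by 3.05 (SE 0.11, 8.29-fold, edgeR adjusted p = 1.93e-13). Clec12a, an inhibitory receptor for uric acid crystals, went from 3.41, 3.34 and 3.36 CPM to 22.3, 24.8 and 23.1 CPM (2.79, SE 0.12). Its controls were nearly identical. Clec9a, the dead-cell receptor of a class of dendritic cells, rose by 1.14 (SE 0.26). Clec1a, a lectin found on endothelium, stood at 2.03 ± 0.219 and 2.62 ± 0.325 CPM (SD, n = 3 each; edgeR adjusted p = 0.152), with overlapping groups.

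Clec12b, an inhibitory relative of Clec12a, had 1 count over all controls against 158 in K5-RANKL libraries, where it stood at 2.16, 3.21 and 2.14 CPM. The ratio was 83.1 (95% counting interval 14.7 to 3305), and the fitted log2 fold change of 6.06 became 8.41 without control 3, which held the 1 count. For a gene with 1 control count the fitted value depends on the prior count and gives a direction only. Its RefSeq span of chromosome 6, from 129375513 to 129427634, overlaps Clec1b, Clec9a and Clec1a, so reads may be shared between these genes. Clec1b, the podoplanin receptor of platelets, had 4 counts in each group and was not tested.

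The Dectin-2 cluster lies on the same chromosome, and 6 of its 7 tested genes rose. Clec4n, encoding Dectin-2, a mannan receptor that signals through Fcer1g, stood at 1.38, 1.86 and 2.58 CPM in controls and 31.4, 27.2 and 27.4 CPM in K5-RANKL glands. It rose by 3.85 (SE 0.16, 14.5-fold, edgeR adjusted p = 1.22e-12). Clec4d, which pairs with its neighbour Clec4e (Mincle), had 0.0922, 0.294 and 0 CPM in controls and 2.53, 3.42 and 3.35 CPM in K5-RANKL glands. It rose by 4.62 (SE 0.48), on 4 counts in controls, and stood at 5.96 without control 2 and 3.96 without control 3. Clec4e itself rose by 1.00 (SE 0.36) from 0.467 ± 0.0777 to 0.953 ± 0.0772 CPM (SD, n = 3 each; edgeR adjusted p = 0.0227). The call of Clec4e was lost with DESeq2 (adjusted p = 0.121) and without control 1, control 2 or K5-RANKL 3 (edgeR adjusted p = 0.0593, 0.0752 and 0.0661).

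The Clec4a genes of this cluster, among them the ITIM-bearing Clec4a2 (DCIR), rose by 1.53 (Clec4a1), 2.49 (Clec4a2) and 2.43 (Clec4a3). They are close relatives, and counting could have split reads between them. Clec4b1 stood at 0.714 ± 0.498 and 0.983 ± 0.288 CPM (SD, n = 3 each) and did not pass (edgeR adjusted p = 0.426). Of the other cluster members, Clec4a4 went from 1 count to 19, and Clec4b2 from 0 to 3.

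Further lectin genes lie outside these clusters. Clec5a, an activating receptor that signals through Tyrobp, had 1.57, 1.67 and 0.861 CPM in controls and 13.9, 13.2 and 13.7 CPM in K5-RANKL glands. It rose by 3.34 (SE 0.19, 10.1-fold, edgeR adjusted p = 6.14e-11). Clec10a, a galactose-type lectin of macrophages and dendritic cells, went from 5.44, 5.89 and 5.95 CPM to 26.9, 27.8 and 29.8 CPM (2.29, SE 0.11). For both genes the lowest K5-RANKL library was several times the highest control.

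Other genes carry the lectin name without being receptors of myeloid cells. Clec3b, encoding the plasma protein tetranectin, rose by 0.56 (SE 0.09), and Clec11a, a secreted growth factor, by 1.19 (SE 0.18). Clec16a, an endosomal and autophagy protein, stood at 28.4, 29.3 and 34.9 CPM in controls and 40.0, 33.8 and 39.0 CPM in K5-RANKL glands. It rose by 0.28 (SE 0.10, edgeR adjusted p = 0.0153), with overlapping groups. Leaving out control 1, control 2, K5-RANKL 1 or K5-RANKL 3 ended the call (edgeR adjusted p = 0.073, 0.0662, 0.0667 and 0.0589).

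Clec14a, an endothelial membrane protein, stood at 11.4, 15.4 and 13.5 CPM in controls and 10.2, 9.52 and 9.97 CPM in K5-RANKL glands. It fell by 0.44 (SE 0.12, edgeR adjusted p = 0.00395), and by library totals alone it rose by 0.56. Of the 5 endothelial markers 2 rose, 1 (Kdr) fell and 2 did not pass, and all 5 rose by library totals alone.

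Clec2 genes encode lectin-like ligands of the NKR-P1 receptors, and Clec2d was first described as osteoclast inhibitory lectin. Clec2d was the most abundant member in controls per length. It stood at 114, 117 and 99.1 CPM in controls and 82.1, 85.4 and 86.2 CPM in K5-RANKL glands, and fell by 0.38 (SE 0.08, edgeR adjusted p = 0.000329). By library totals alone it rose by 0.62. The ratio of Clec2d to the leukocyte gene Ptprc, which does not depend on the scaling, was 1.79, 1.46 and 1.33 in controls and 0.588, 0.591 and 0.602 in K5-RANKL glands. Ptprc itself rose by 0.97 (SE 0.08) on the TMM scale, so the lower ratio does not show that Clec2d fell.

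The other tested Clec2 genes rose. Clec2i went from 2.40, 2.36 and 1.96 CPM to 4.40, 5.46 and 5.22 CPM (1.17, SE 0.19). The span of Clec2i overlaps BC035044, so reads may be shared between them. Clec2g had 0.0922, 0.294 and 0.0782 CPM in controls and 0.955, 1.02 and 0.885 CPM in K5-RANKL glands (2.62, SE 0.51). On 5 counts in controls, its value was 3.38 without control 2. Its span overlaps Gm15987, so its reads are uncertain.

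All 4 Fc gamma receptor genes rose. Fcgr2b, the inhibitory receptor of the family, stood at 9.22, 10.1 and 11.6 CPM in controls and 75.9, 70.8 and 76.8 CPM in K5-RANKL glands. It rose by 2.85 (SE 0.10, 7.20-fold, edgeR adjusted p = 1.29e-13). Fcgr3, an activating receptor that needs Fcer1g, stood at 5.99, 7.07 and 8.84 CPM in controls and 57.0, 55.4 and 50.3 CPM in K5-RANKL glands, and rose by 2.88 (SE 0.12). These neighbours on chromosome 1 have similar extracellular sequences, and counting could have split reads between them.

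Fcgr1, the high-affinity receptor for IgG, rose by 1.95 (SE 0.19) from 2.51 ± 0.642 to 9.59 ± 1.58 CPM, and Fcgr4 by 1.19 (SE 0.26) from 1.13 ± 0.332 to 2.62 ± 0.14 CPM (SD, n = 3 each). The ratio of Fcgr3 to Fcgr2b was 0.65, 0.699 and 0.763 in controls and 0.751, 0.783 and 0.654 in K5-RANKL glands, with overlap. With Fcgr1 and Fcgr4 added to Fcgr3, the ratio of activating to inhibitory transcripts was 0.96, 1.13 and 1.09 in controls and 0.931, 0.93 and 0.819 in K5-RANKL glands. These ranges did not overlap, but the gap between them was smaller than the spread within either group.

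Siglecs bind sialic acid. All 5 tested genes rose. Siglec1, the macrophage receptor sialoadhesin, stood at 5.81, 17.4 and 16.5 CPM in controls and 53.2, 45.3 and 51.2 CPM in K5-RANKL glands, and rose by 1.91 (SE 0.37, edgeR adjusted p = 0.00877). Control 1 lay well below the other controls, and without it the value was 1.56. Siglec15, an osteoclast receptor that signals through Tyrobp, had 1 control count against 44 in K5-RANKL libraries. The ratio was 23.1 (95% counting interval 3.95 to 935), and its fitted log2 fold change of 4.22 became 6.56 without control 3. Of 6 osteoclast markers 5 were tested and 4 rose, with a median of 5.02 over those tested. Of the 4, Ocstamp was under the filter's level in every control and Dcstamp in control 2 and control 3. Atp6v0d2 did not pass (48.3 and 43.0 CPM). The summed level of the list went from between 84.2 and 89.4 CPM to between 446 and 604 CPM. Calcr, the calcitonin receptor gene, was at 0 in controls. The part of osteoclasts in the Siglec15 change was not tested.

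The inhibitory Siglece rose by 1.51 (SE 0.25), and Siglech, a marker of plasmacytoid dendritic cells, by 0.95 (SE 0.16). The span of Siglece overlaps Ctu1, a gene with 291 control counts against 418 in the other group, so the reads of Siglece are uncertain. Siglecg, best known on B cells, went from 3.28 ± 0.759 to 4.64 ± 0.15 CPM (SD, n = 3 each) and rose by 0.52 (SE 0.19, edgeR adjusted p = 0.0228). Its call was lost with DESeq2 (adjusted p = 0.0709) and without control 1 or control 3 (edgeR adjusted p = 0.0665 and 0.129). Of 5 B cell markers 1 rose and 4 did not pass, at a summed level of 102 to 114 CPM in controls and 115 to 129 CPM in K5-RANKL glands. Siglec5, which the table lists without an identifier, had 1 control count against 30 in K5-RANKL libraries, for a ratio of 15.8 (95% counting interval 2.62 to 644).

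All 5 tested paired and inhibitory receptor genes rose. Lilrb4, an ITIM-bearing receptor, went from 1.84, 2.45 and 2.42 CPM to 14.2, 15.6 and 16.2 CPM (2.76, SE 0.15, edgeR adjusted p = 5.58e-11). Pirb, an inhibitory receptor for MHC class I, rose by 1.93 (SE 0.17), and Pilra, also inhibitory, by 2.05 (SE 0.24). The span of Pilra overlaps Zcwpw1, so reads may be shared between them. Pilrb2, of the activating Pilrb pair, had 0.553, 0.294 and 0.157 CPM in controls and 1.91, 1.12 and 1.30 CPM in K5-RANKL glands (2.14, SE 0.43).

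Sirpa, the receptor for the antiphagocytic signal CD47, stood at 71.8, 77.0 and 78.0 CPM in controls and 165, 170 and 164 CPM in K5-RANKL glands, and rose by 1.14 (SE 0.07, edgeR adjusted p = 3.05e-10). Lilrb4, Pirb, Pilrb2 and Sirpa have near relatives in the genome, and reads could have been split between copies.

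All 3 tested TREM family genes rose, of which Trem1 and Treml4 reached the filter's level in no control. Trem1, an amplifier of inflammatory signals that uses Tyrobp, had 1 control count against 85 in K5-RANKL libraries, for a ratio of 44.7 (95% counting interval 7.82 to 1787). Its levels in K5-RANKL glands were 1.66, 0.856 and 1.35 CPM, and its fitted log2 fold change of 5.15 became 7.53 without control 2. Treml4 went from 0.461, 0.687 and 0.391 CPM to 1.62, 1.71 and 1.68 CPM (1.71, SE 0.33).

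Treml2, found on B cells, neutrophils and macrophages, stood at 6.45, 6.09 and 6.10 CPM in controls and 9.88, 8.08 and 7.59 CPM in K5-RANKL glands. It rose by 0.46 (SE 0.14, edgeR adjusted p = 0.00966), and its call was lost without K5-RANKL 1 (edgeR adjusted p = 0.0745). Trem3 and Treml1 had 9 and 4 counts in K5-RANKL libraries and were not tested.

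Of the 8 CD300 genes, 4 rose, 1 did not pass and 3 were not tested. Cd300lf, a lipid-binding receptor with ITIMs, stood at 0.277, 0.589 and 0.235 CPM in controls and 5.77, 5.56 and 5.92 CPM in K5-RANKL glands. It rose by 3.99 (SE 0.29, 15.9-fold, edgeR adjusted p = 1.72e-09). Cd300lb, an activating receptor that uses Tyrobp, went from 0.461, 0.785 and 0.548 CPM to 7.43, 7.81 and 5.59 CPM (3.53, SE 0.26). The inhibitory Cd300a rose by 2.65 (SE 0.15) and Cd300ld by 2.37 (SE 0.26).

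Cd300lg, the family member of endothelium, stood at 12.5, 14.4 and 14.7 CPM in controls and 10.5, 14.9 and 13.6 CPM in K5-RANKL glands. The groups overlapped, at −0.10 (SE 0.13, edgeR adjusted p = 0.494), and by library totals alone the value was 0.89. Cd300lf lies inside the span of Rab37, a gene with 71 control counts against 197 in the other group, so its reads are uncertain.

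Of the 9 scavenger and uptake receptor genes, all were tested, 8 rose and Cd36 did not pass. Msr1, the class A scavenger receptor of macrophages, stood at 1.75, 3.53 and 2.97 CPM in controls and 30.5, 32.4 and 33.6 CPM in K5-RANKL glands. It rose by 3.54 (SE 0.15, 11.7-fold, edgeR adjusted p = 1.82e-12). Mrc1, the mannose receptor, went from 10.3, 16.5 and 15.0 CPM to 71.1, 76.8 and 85.3 CPM (2.48, SE 0.13). The groups were well apart for both genes.

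Cd163, the receptor for haemoglobin bound to haptoglobin, rose by less, at 1.29 (SE 0.14) from 4.81 ± 0.427 to 11.8 ± 1.02 CPM (SD, n = 3 each). The ratio of Msr1 to Cd163 within a library was 0.388, 0.667 and 0.644 in controls and 2.87, 2.68 and 2.67 in K5-RANKL glands. That of Mrc1 to Cd163 was 2.29, 3.11 and 3.25 in controls and 6.69, 6.35 and 6.78 in K5-RANKL glands. Neither ratio overlapped between groups. Marco, a related collagenous receptor, rose by 0.93 (SE 0.15) and the dendritic cell lectin gene Cd209a by 1.13 (SE 0.21).

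Among receptors for dying cells, Axl, a receptor kinase, stood at 49.0, 59.1 and 57.4 CPM in controls and 178, 175 and 177 CPM in K5-RANKL glands, and rose by 1.68 (SE 0.08, edgeR adjusted p = 9.02e-12). Mertk, a kinase of the same family, went from 8.57, 10.7 and 9.94 CPM to 11.9, 16.5 and 12.8 CPM, and rose by 0.49 (SE 0.14, edgeR adjusted p = 0.0045). The ratio of Axl to Mertk was 5.72, 5.52 and 5.77 in controls and 14.9, 10.6 and 13.8 in K5-RANKL glands. Axl is also made by fibroblasts, and 4 of 5 fibroblast markers rose. Their summed level was 446 to 592 CPM in controls and 2039 to 2366 CPM in K5-RANKL glands. Most of that rise was in the collagen genes Col3a1 (155 to 1357 CPM) and Col1a1 (68.3 to 498 CPM). Dcn, the most abundant of the list in controls, did not pass (245 and 226 CPM), and Pdgfra rose 1.61-fold. The part of fibroblasts in the Axl change was not tested.

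Timd4, a phosphatidylserine receptor of resident macrophages, rose by 1.42 (SE 0.16) from 10.6 ± 2.92 to 28.4 ± 2.86 CPM (SD, n = 3 each). Cd36, a fatty acid and lipoprotein receptor found also on adipocytes and endothelium, stood at 102, 74.5 and 82.9 CPM in controls and 73.0, 116 and 115 CPM in K5-RANKL glands. The groups overlapped (0.22, SE 0.23, edgeR adjusted p = 0.435). Without K5-RANKL 1, the lowest library of its group, the value was 0.41 (edgeR adjusted p = 0.00403). The 5 adipocyte markers did not pass, at a summed level of 255 to 437 CPM in controls and 285 to 385 CPM in K5-RANKL glands.

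**Figure D2:**
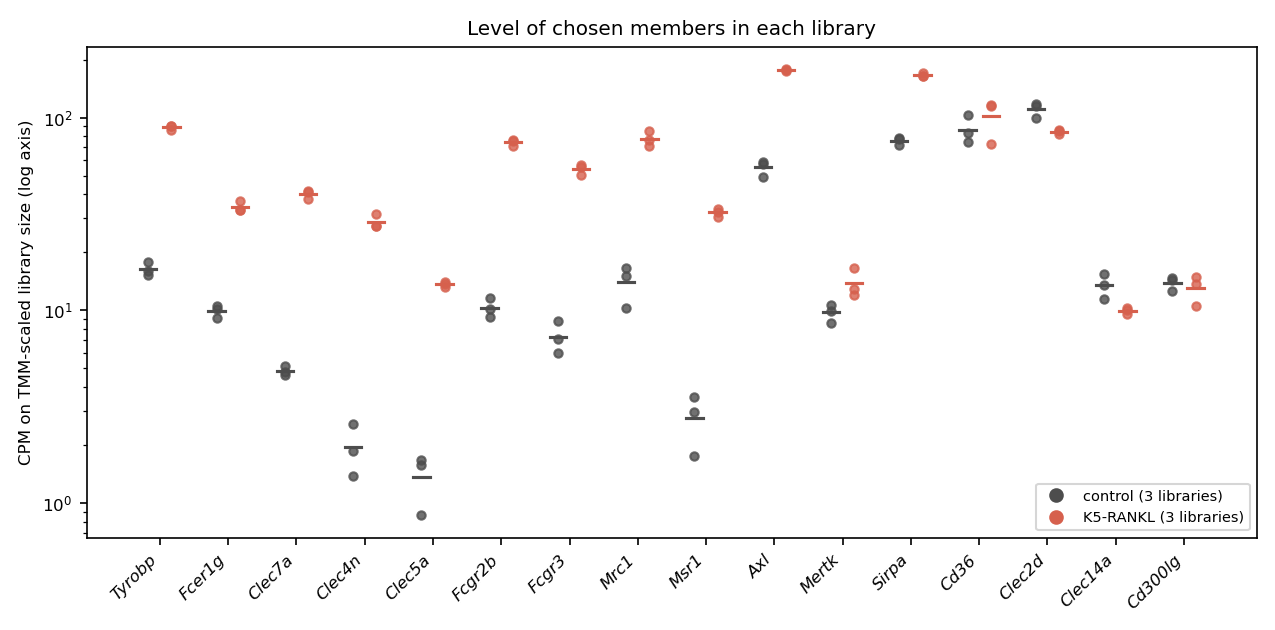
CPM on TMM-scaled library sizes (y axis, log scale) of 16 members (x axis) in each of 3 control (grey) and 3 K5-RANKL (red) libraries; points are libraries and short lines are group means. Tyrobp sits at 15.3 to 17.9 CPM in controls and 86.3 to 90.6 CPM in K5-RANKL libraries, Cd36 and Cd300lg overlap between groups, and Clec2d and Clec14a are lower in K5-RANKL libraries on this scale but higher by library totals alone.

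Because macrophage markers rose in the same libraries, each member was also set against them. The measure was the log2 CPM of a member minus the mean log2 CPM of the 9 macrophage markers in that library, which does not depend on the scaling. The markers themselves stood 2.27 higher on average. Of the 50 members with a count in every library, 12 were higher relative to the markers in every K5-RANKL library than in any control, 26 were lower in every K5-RANKL library, and 12 overlapped. Of all 13825 tested genes with a count in every library, 2.12% were higher and 92.4% lower by the same measure. Among the 12 higher members, Cd300lf and Cd300lb reached the filter's level in 0 controls and Clec5a in 2. Their place among the 12 rests on a filter passed through K5-RANKL libraries. Cd300lf had 3, 6 and 3 counts in controls. No test was made of these differences.

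The members whose ratio to the markers was higher in every K5-RANKL library included Cd300lf (a difference of 1.82 in the log2 ratio), Clec4n (1.66), Msr1 (1.34), Cd300lb (1.29), Clec5a (1.11) and Clec7a (0.78). Fcgr3 (0.64), Fcgr2b (0.59), Clec12a (0.52), Lilrb4 (0.51), Cd300a (0.40) and Clec4a2 (0.23) complete the 12. Among those that overlapped were Tyrobp (0.17), Mrc1 (0.23), Clec10a (0.02) and Pirb (−0.26). The ratio was lower in every K5-RANKL library for Fcer1g (−0.47), Axl (−0.59), Timd4 (−0.81), Cd163 (−0.98), Sirpa (−1.13), Marco (−1.31) and Mertk (−1.78), although all of these rose in level. It fell furthest for Clec14a (−2.70) and Clec2d (−2.65).

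**Figure D3:**
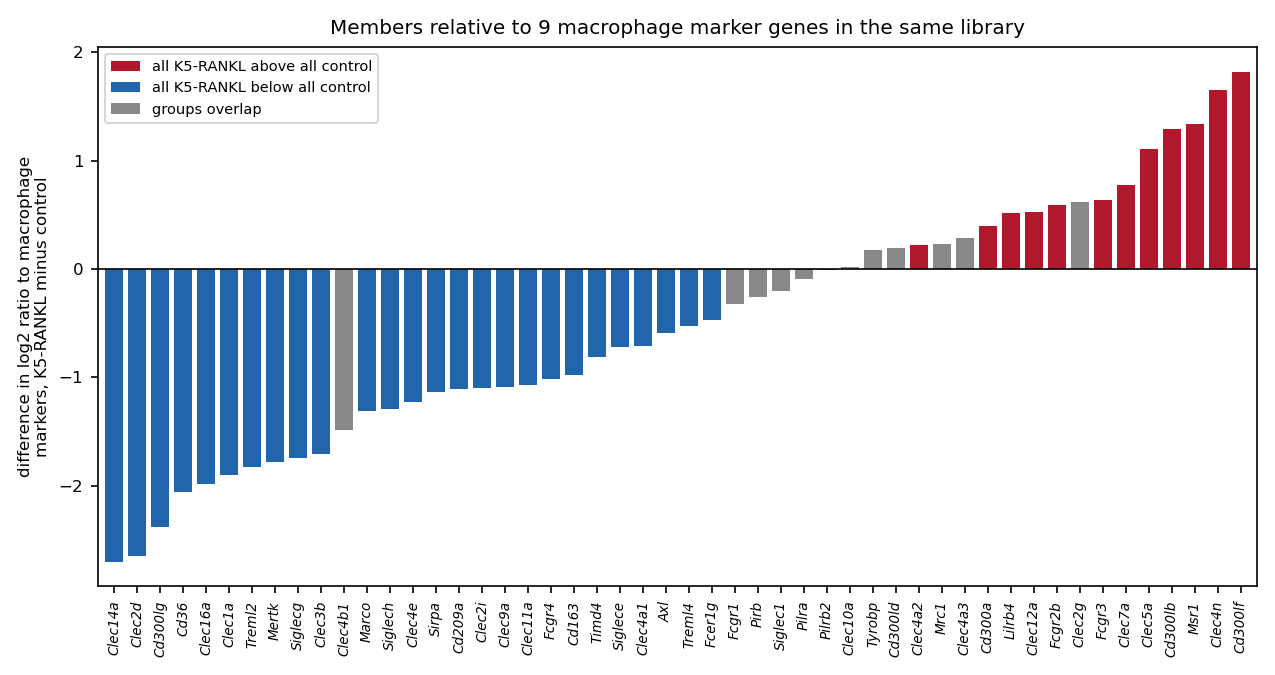
Difference, K5-RANKL minus control, in the log2 ratio of each member to the mean of 9 macrophage marker genes in the same library (y axis), for the 50 tested members with a count in every library (x axis). Red bars (12) are members whose 3 K5-RANKL libraries all lie above the controls, blue bars (26) all below, and grey bars (12) overlap. Of all genes, 2.12% lie above and 92.4% below. Cd300lf stands at 1.82 and Clec14a at −2.70. Cd300lf, Cd300lb and Clec5a, among the red bars, did not reach the filter's level in every control.

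Signalling genes downstream of the receptors rose as well. Of 22 genes of ITAM and ITIM signalling, 21 rose and Ptpn11, encoding the phosphatase SHP-2, stayed short of the threshold (0.09, edgeR adjusted p = 0.278). Of those that rose, Card9 was under the filter's level in control 1. The median of the list was 1.22, and 34.2% of all genes tested rose. Syk, the kinase that binds phosphorylated ITAMs, rose by 2.08 (SE 0.08) from 23.3 ± 0.089 to 98.6 ± 3.16 CPM (SD, n = 3 each). The Src family kinase gene Fgr rose by 2.50 (SE 0.12), the highest of the list, and Inpp5d, encoding the inhibitory phosphatase SHIP1, by 1.87 (SE 0.09). By library totals alone all 22 rose.

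Ligand genes went both ways. Of 8, 6 rose and 2 fell. Pianp, which encodes a ligand of Pilra, rose by 5.12 (SE 0.19) from 0.605 ± 0.187 to 20.8 ± 1.01 CPM (SD, n = 3 each). On 20 control counts, Pianp was under the filter's level in every control and was tested through K5-RANKL libraries alone. Thbs1, a ligand of CD36 and CD47, rose by 4.01 (SE 0.09) from 19.5 ± 0.677 to 314 ± 16.8 CPM (SD, n = 3 each). Cd47 rose by 1.14 (SE 0.08), and Pdpn, the ligand of Clec1b, by 3.01 (SE 0.27). Pros1 and Gas6 bridge dying cells to Axl and Mertk: Pros1 rose by 1.30 (SE 0.09) and Gas6 fell by 0.43 (SE 0.07). Cd24a, a ligand of Siglecg, fell by 0.78 (SE 0.08). By library totals alone Gas6 and Cd24a rose, by 0.57 and 0.22.

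Of 13 other scavenger receptor genes, 9 rose, 1 fell, 1 (Cd5l) did not pass and 2 had too few counts. The median was 0.80. Cxcl16, a scavenger receptor and chemokine, rose by 2.84 (SE 0.11). Tyro3, another kinase of the Axl and Mertk family, fell by 0.66 (SE 0.13), but rose by 0.34 by library totals alone. Of 7 myeloid transcription factor genes 5 rose, among them Spi1, encoding PU.1, by 2.25 (SE 0.10) from 6.80 ± 0.413 to 32.6 ± 1.14 CPM (SD, n = 3 each), and Tfec by 3.74 (SE 0.38). On 9 control counts, Tfec was under the filter's level in every control and was tested through K5-RANKL libraries alone. Cebpa and Cebpb did not pass, at 0.22 and −0.06, and both rose by library totals alone.

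**Figure D4:**
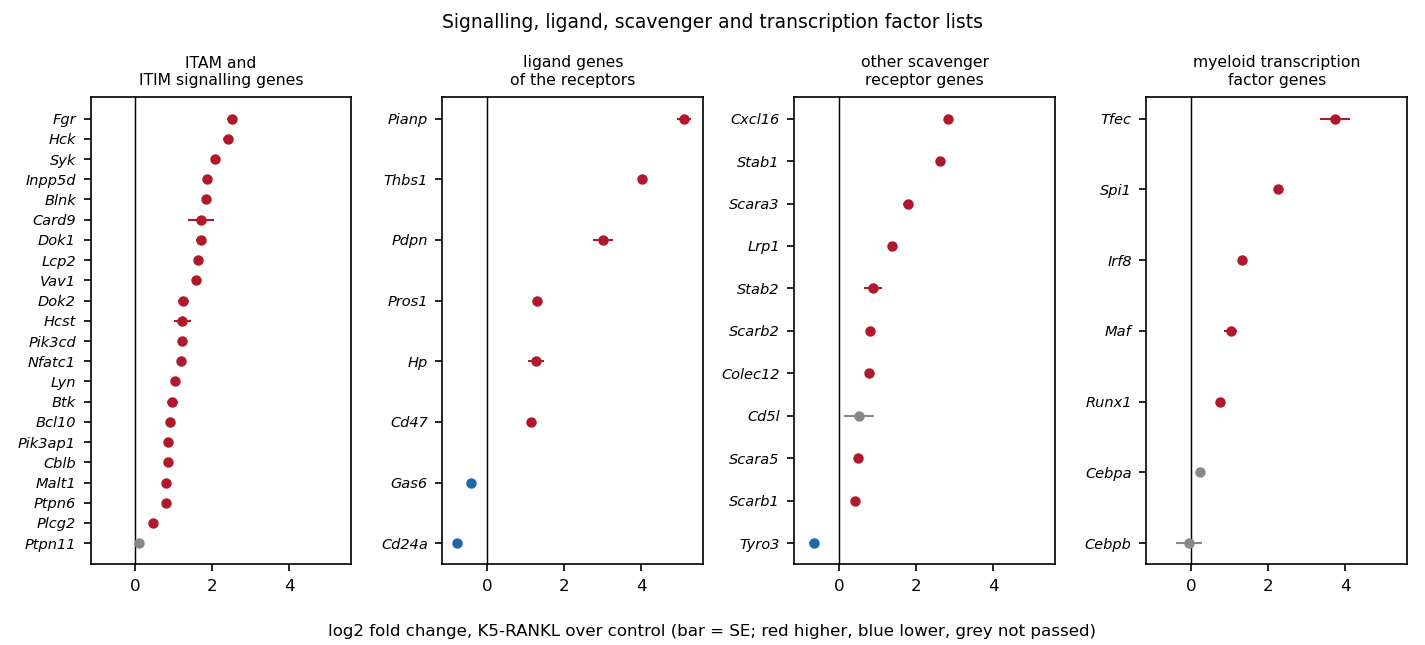
Log2 fold change, K5-RANKL over control (x axis), of the tested genes (y axis) of 4 lists: ITAM and ITIM signalling (22), receptor ligands (8), other scavenger receptors (11) and myeloid transcription factors (7); bars are standard errors. Red points passed as higher, blue as lower and grey did not pass. Gas6, Cd24a and Tyro3 lie below 0 here and above 0 by library totals alone. Pianp and Tfec were under the filter's level in every control.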

How the data were processed

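The values deposited by the authors are raw counts, 1 column for each of 6 libraries. STAR and mm10 are named in the submitters' processing notes. The version of STAR, how reads were counted and with which strand setting is not given in the sources used here; reads of genes that overlap or lie antisense may therefore be misplaced. Poly(A) libraries were made from 250 ng of RNA with a stranded kit, per the labels' protocols. Every column of counts was used. Replicate numbers follow accession order and pair nothing. Chi-square per gene between libraries of a group was 6.26 to 38.3, above sampling noise. The highest values were those of control 1 with control 2 and control 3 (37.0 and 38.3). Control 2 with control 3 gave 6.26, and K5-RANKL pairs gave 12.5 to 23.1. Each library was counted as 1 sample.

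Genes were filtered with filterByExpr (minimum count 10) and tested with edgeR 4.0.16 (TMM, robust quasi-likelihood, two-sided; R 4.3.3), without covariates. A gene was called at an adjusted p under 0.05. Standard errors are the log2 fold change over the square root of F. Alternatives were other scalings and filters, DESeq2 1.42.0, voom of limma 3.58.1 with quality weights, and leaving out each library. Counting intervals cover counting error only.

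The members and lists were chosen with earlier results of these data known. Both adaptors are named, and in each role the 2 called members with the highest fold change, the one with the highest CPM, those that fell and those that did not pass. Others were named after their values were seen. Identifiers matched RefSeq genes of GRCm38.p6 for 71 members; exon lengths are from GENCODE M21. The macrophage marker Adgre1 is listed in the table as Emr1, and Ly6g and protein sequence patterns were not analysed here.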

Additional observations from a re-analysis of the deposited data

How the results depend on the processing

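Some directions depend on the scaling. By library totals alone 54 members rose and 0 fell, with a median of 2.84, and Clec2d, Clec14a and Cd300lg stood at 0.62, 0.56 and 0.89. RLE size factors, upper-quartile scaling, TMM without the 20 most abundant genes and voom each gave 48 higher and 2 lower. DESeq2 gave 46 and 2, no filter 52 and 2 of 72, and at least 50 counts in 3 libraries 40 and 2 of 44. Leaving out each library in turn gave 45 to 50 higher, 2 lower and a median of 1.68 to 1.89. Clec4b1 ran from −0.026 (without control 1) to 1.03, and Cd300lg from −0.21 to 0.032 (without K5-RANKL 1). Over the 54 members and 14 alternatives, 12 single values lost a call, in Clec4e, Clec16a, Siglecg and Treml2. No paired analysis was possible because the labels give no replicate number shared by the groups. Depth limits the 18 untested members: 3 counts correspond to 0.235 to 0.295 CPM in controls and 0.125 to 0.161 CPM in K5-RANKL libraries.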

Other observations

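Relatives of the receptors that the symbol rule left out were examined after the members' results were known. Of 20 such genes 17 could be tested with edgeR and 16 rose on the TMM scale, where 34.2% of all genes tested rose. Some of the 16, among them Cd207, Pira2 and Sirpb1a, were under the filter's level in every control and were tested through K5-RANKL libraries alone. Cd207, encoding langerin, the lectin of Langerhans cells and some dendritic cells, rose by 6.82 (SE 0.27, edgeR adjusted p = 7.67e-13) from 0.122 ± 0.0645 to 14.2 ± 0.691 CPM (SD, n = 3 each), on 4 control counts. Fcamr, encoding a receptor for IgA and IgM, rose by 5.78 (SE 0.12) from 2.34 ± 0.13 to 129 ± 10.9 CPM (SD, n = 3 each). Pigr, the epithelial receptor that carries the same immunoglobulins into saliva, stood at 614 ± 37.4 and 604 ± 32.0 CPM and did not pass (edgeR adjusted p = 0.824). Havcr2, encoding the inhibitory receptor TIM-3, rose by 3.37 (SE 0.16) from 1.79 ± 0.441 to 18.4 ± 0.758 CPM.

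Klrb1b, an inhibitory NKR-P1 receptor whose ligand is Clec2d, went the other way from Clec2d on the TMM scale, and rose by 2.51 (SE 0.20, edgeR adjusted p = 6.50e-09) from 1.35 ± 0.322 to 7.61 ± 0.354 CPM (SD, n = 3 each). By library totals alone Clec2d rose as well. Of 5 NK cell markers, 2 rose and 1 (Klre1) fell on the TMM scale, and their summed level went from between 9.15 and 10.4 CPM to between 13.4 and 16.6 CPM.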
